A study of Mus musculus with 10 samples.

Results

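The control arm of the series is the transcriptome of the normal embryonic dorsal root ganglion (DRG), read as 5 bulk RNA libraries from 5 embryos at E18.5, late in gestation, of the 10 libraries in all. Libraries were taken as control by their titles, because the genotype entries of the labels are exchanged with those of the *WD1* cKO libraries, in which *Wnt1*-driven Cre deletes *Dach1* in the neural crest. By the series' design the control embryos carry floxed *Dach1* alleles (*Dach1* flox/flox) without Cre, were littermates of the mutants, and come from a line on a mixed C57Bl/6J and CD1 background. The labels give the cell type as neurons and glia. The axial level of the ganglia, the litters and the sex are not given, so the spread described here holds every difference between embryos and between dissections, and the parts of each cannot be told apart.

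DRG hold the cell bodies of the somatosensory neurons that carry touch, body position, temperature, itch and pain from the body to the spinal cord. These neurons arise from the neural crest and split into subtypes that depend on different growth factor receptors. TrkB (*Ntrk2*) and *Ret* are found in subsets of low-threshold mechanoreceptors (LTMRs), and *Ret* also in non-peptidergic nociceptors. TrkC (*Ntrk3*) is found in proprioceptors and in some LTMRs. Around them lie satellite glia and Schwann cells, also of neural crest origin, together with vessels, macrophages and a connective tissue capsule.

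The files list 55414 genes, and the total count per control library ranged from 20465132 to 27528784. Counts were divided by these totals and scaled to the usual CPM unit to compare a gene between embryos. To compare genes with each other, CPM were also divided by the merged exon length of the gene in GENCODE vM21 and rescaled to the same total (TPM). Detection was set at 1 CPM or more in each of the 5 libraries, which 14598 genes met (26.3% of those listed), of which 13483 were protein-coding. A count of 3, used as the floor, corresponded to between 0.109 and 0.147 CPM, and such floors cover counting error only. Pairs of libraries had rank correlations across detected genes between 0.992 and 0.996, a description across genes, which are not independent replicates. The chi-square per degree of freedom of their counts lay between 6.32 and 14.3, so each library differed from the others by more than sampling noise. Replicates 1 and 2 and replicates 4 and 5 were the closest pairs by this measure, at 6.32 and 7.08, and replicates 3 and 5 the most distant.

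*Dach1* (ENSMUSG00000055639), a transcriptional corepressor and the gene targeted in the mutants, stood at 35.1, 38.7, 42.0, 36.6 and 36.7 CPM in control replicates 1 to 5, from 719 to 1008 counts. The libraries titled *WD1* cKO lay between 19.2 and 20.7 CPM and did not overlap with these, which is given as a check of the titles only. Per length, *Dach1* was at 21.9 ± 1.58 TPM (SD, n = 5), just below the median of 26.1 TPM over detected genes.

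The counts of the control ganglia were spread over many genes. Between 1286 and 1365 genes held 50% of the counts of a library and the 10 highest genes held 3.54 to 3.81%. By CPM, which favours long transcripts, the highest genes were *mt-Co1* at 5127 ± 360 CPM (SD, n = 5) and *Meg3*, an imprinted non-coding RNA, at 5006 ± 302 CPM. They were followed by *mt-Cytb*, *Map1b*, *Dpysl3*, *mt-Nd1*, *Snhg11*, *Tubb5*, *Sptan1* and *mt-Nd5*. *Map1b*, *Dpysl3* and *Sptan1* encode proteins of the axonal cytoskeleton or its regulation, and *Map1b* alone took 3645 ± 218 CPM.

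Per length, 7 mitochondrial genes led, from *mt-Cytb* at 16635 ± 975 TPM (SD, n = 5) to *mt-Nd4* at 4643 ± 248 TPM. The highest nuclear gene was *Prph*, which encodes the intermediate filament peripherin of peripheral neurons, at 4623 ± 212 TPM. *Sncg* (gamma-synuclein) at 4361 ± 183 TPM and *Tubb3* (a neuronal beta-tubulin) at 4344 ± 163 TPM stood next, and the ranges of *Prph* and *Tubb3* overlapped although *Prph* was higher in each of the 5 libraries. The rest of the 20 highest genes per length were *Tubb5*, *Uchl1*, *Tmsb4x*, *Hsp90ab1*, *Mir6236*, *Hbb-bs*, *Stmn3*, *H19*, *Calm2* and *Gap43*. *H19*, an imprinted RNA of fetal tissues, reached 2526 ± 429 TPM. *Hbb-bs*, an adult beta-globin, was the only gene of red blood cells among the 20 and the most uneven of them, at 3243 ± 2817 TPM. The entry *Mir6236* is annotated over 123 bases, so its 3292 ± 1640 TPM rests on 33.5 to 137 CPM over a very short length. The value of *mt-Nd6* (7213 ± 799 TPM) is uncertain because this gene lies on the opposite mitochondrial strand and the strand setting of the counting is not given.

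Several abundant genes share long stretches with annotated copies, which limits what their counts can show. Of the 13 protein-coding mitochondrial genes, 7 of the genes were detected and 5 (*mt-Co2*, *mt-Atp8*, *mt-Atp6*, *mt-Co3* and *mt-Nd4l*) had no count in any control library, while *mt-Nd3* had at most 4 counts. As a measure chosen after these values were seen, each gene's GENCODE vM21 transcripts were broken into windows of 50 bases, and the share of windows also present in a transcript of another gene was taken. That share was 100% for *mt-Co2*, 99.9% for *mt-Co3*, 99.5% for *mt-Atp6*, 98.8% for *mt-Nd4l* and 98.0% for *mt-Nd3*, 62.2% for *mt-Nd4* and 51.1% for *mt-Co1*, 8.19% for *mt-Nd2* and less for the other mitochondrial protein genes. *mt-Atp8* is the exception, with no count and a share of 0%. The matches of *mt-Co2* lie in *Gm28661*, an annotated pseudogene that shares 681 of its 684 bases in an unbroken run, and the stretch below, bases 311 to 370 of the *mt-Co2* transcript, is the same in both.
mt-Co2 and Gm28661: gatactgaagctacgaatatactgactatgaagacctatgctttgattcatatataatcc
*Gm28661* itself held 0.0432 to 0.182 CPM, so neither entry held counts near those of the other mitochondrial genes. Over protein-coding genes, 67.5% of the 11586 with a share up to 1% were detected, 24.5% of the 713 with a share above 50 and up to 80%, and 0.531% of the 565 with a share above 95%. How the counting treated reads with several equal matches is not given, and its part in these values was not tested.

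The globins show the same property with large counts. The coding sequences of the alpha-globins *Hba-a1* and *Hba-a2* have 429 bases each and differ at a single base, C381T, counted from the start codon with the base of *Hba-a1* named before the position. The beta-globins *Hbb-bs* and *Hbb-bt* differ at 1 of 444 bases, C417T, with the base of *Hbb-bs* named before the position. The stretches around these bases are given 5′ to 3′ from GENCODE vM21, with the differing base in capitals.
Hba-a1: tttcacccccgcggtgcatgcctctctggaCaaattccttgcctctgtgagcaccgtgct
Hba-a2: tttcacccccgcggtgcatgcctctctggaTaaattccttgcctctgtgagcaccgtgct
Hbb-bs: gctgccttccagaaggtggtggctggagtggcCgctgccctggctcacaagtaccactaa
Hbb-bt: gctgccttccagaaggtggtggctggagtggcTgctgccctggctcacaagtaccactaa
Within the coding sequence only a read that covers this base can tell the members of a pair apart, so the split of counts within a pair is uncertain. The ratio of *Hba-a1* to *Hba-a2* per length was 3.88, 174, 1.32, 3.56 and 3.65 in replicates 1 to 5, whereas that of *Hbb-bs* to *Hbb-bt* stayed between 2.95 and 3.82.

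**Figure D1:**
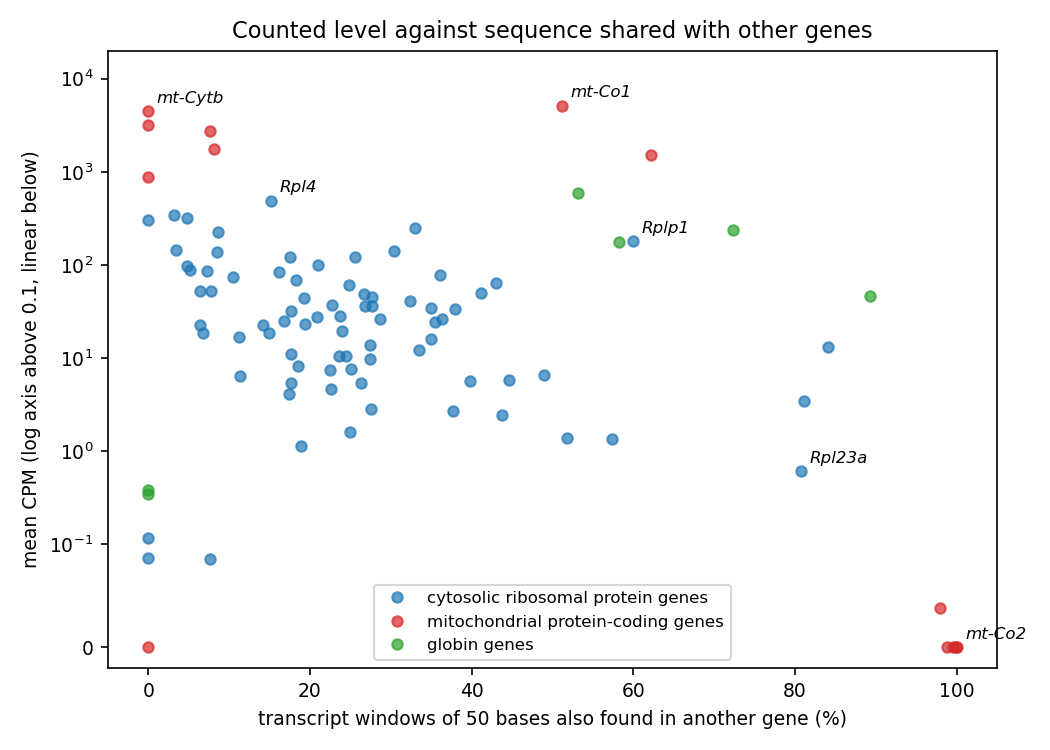
Mean CPM of 5 control libraries (y axis, logarithmic above 0.1) against the percentage of 50-base transcript windows also found in another gene (x axis), 1 point per gene for cytosolic ribosomal protein (blue), mitochondrial protein-coding (red) and globin genes (green). The mitochondrial genes at 98% or more, *mt-Co2* among them at 100%, lie at or near 0, and *mt-Cytb*, with no shared window, lies at 4500 CPM.

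Ribosomal protein genes, most of whose products enter the ribosome in equal numbers, were counted at very unequal levels. Of the 79 on the list, 73 were detected, with a median of 53.5 TPM, and the highest detected member was 272-fold above the lowest. *Rplp1* stood at 1524 TPM with 60.0% shared windows, *Rpl4* at 1027 TPM with 15.2% and *Rpl8* at 992 TPM with 4.80%. Of the widely used members, *Rpl23a* had 0.607 CPM with 80.8% shared windows, *Rpl24* 1.37 CPM with 51.8% and *Rpl19* 1.36 CPM with 57.4%. Other members went the other way. *Rps29* had 1.12 CPM with 18.9% shared windows, while *Rpl35* and *Rpl36*, with 84.0% and 81.1%, stood at 44.5 and 37.9 TPM. The 16 members with at most 10% shared windows had a median of 74.2 TPM and the 63 above that 46.1 TPM. The lowest members, *Rpl10l*, *Rpl39l* and *Rpl3l*, which are known from testis and muscle, had at most 4 counts in a library although at most 7.60% of their windows were shared. *Rpl30* was 5.88 CPM in replicate 4 and 29.2 to 33.3 CPM in the other libraries.

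Among the 5 marker genes of subtypes and glia, the order per length was *Prph*, *Ret*, *Sox10*, *Ntrk2* and *Ntrk3*. *Prph* (ENSMUSG00000023484) was at 2362, 2216, 2103, 2145 and 2099 CPM in replicates 1 to 5. *Ret* (ENSMUSG00000030110), the signalling receptor of the GDNF family, was at 689, 692, 704, 802 and 833 CPM, highest in replicates 4 and 5. *Sox10* (ENSMUSG00000033006), a transcription factor of glia and neural crest cells, was at 89.8, 85.7, 111, 84.1 and 78.0 CPM, highest in replicate 3. The coefficient of variation (CV) of *Sox10* was 13.9%, and without replicate 3 its level was 84.4 ± 4.87 CPM (SD over 4 libraries).

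*Ntrk2* (ENSMUSG00000055254) was at 210, 207, 238, 212 and 203 CPM in replicates 1 to 5, and *Ntrk3* (ENSMUSG00000059146) at 321, 324, 274, 331 and 322 CPM. Replicate 3 stood apart in both, as the highest for *Ntrk2* and the lowest for *Ntrk3*. Although CPM put *Ntrk3* above *Ntrk2* in every library, its annotated exons are longer, and per length they were close, at 46.9 ± 2.92 TPM (SD, n = 5) for *Ntrk2* and 44.1 ± 3.26 TPM for *Ntrk3*. Their ranges overlapped and *Ntrk2* was the higher in 3 of 5 libraries. The ratio of *Ntrk2* to *Ntrk3* was 1.36 in replicate 3 and between 0.986 and 1.02 in the others, so 1 library sets its mean of 1.07.

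All 11 neurotrophin and GDNF receptor genes on the list were detected. *Ngfr*, the low-affinity receptor p75 that binds every neurotrophin, was the highest at 1496 ± 21.5 TPM (SD, n = 5), and *Ret* stood at 465 ± 43.8 TPM. Of the co-receptors that tune *Ret* to its ligands, *Gfra3* was at 296 ± 7.70 TPM, *Gfra2* at 115 ± 7.41 TPM, *Gfra1* at 44.7 ± 6.32 TPM and *Gfra4* at 26.7 ± 2.64 TPM. *Sort1*, at 81.1 ± 3.89 TPM, lay between *Gfra2* and *Ntrk2*, and the ranges of *Ngfr*, *Ret*, *Gfra3*, *Gfra2*, *Sort1* and *Ntrk2* did not overlap with each other. Below that, *Ntrk2*, *Gfra1*, *Ntrk3* and *Sorcs1* did not differ from their neighbours beyond their spread. *Ret* exceeded *Ntrk2* by 9.96 ± 1.27-fold per length, in 5 of 5 libraries. In bulk tissue, fewer cells of a type and less RNA per cell cannot be told apart, so this ratio describes the ganglion and not the number of neurons of a subtype. The sum over the 11 genes ranged only 1.07-fold between libraries, the narrowest of the gene lists described here when scaled by library totals. With edgeR's TMM scaling it ranged 1.10-fold, against 1.08-fold for the satellite glia list.

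**Figure D2:**
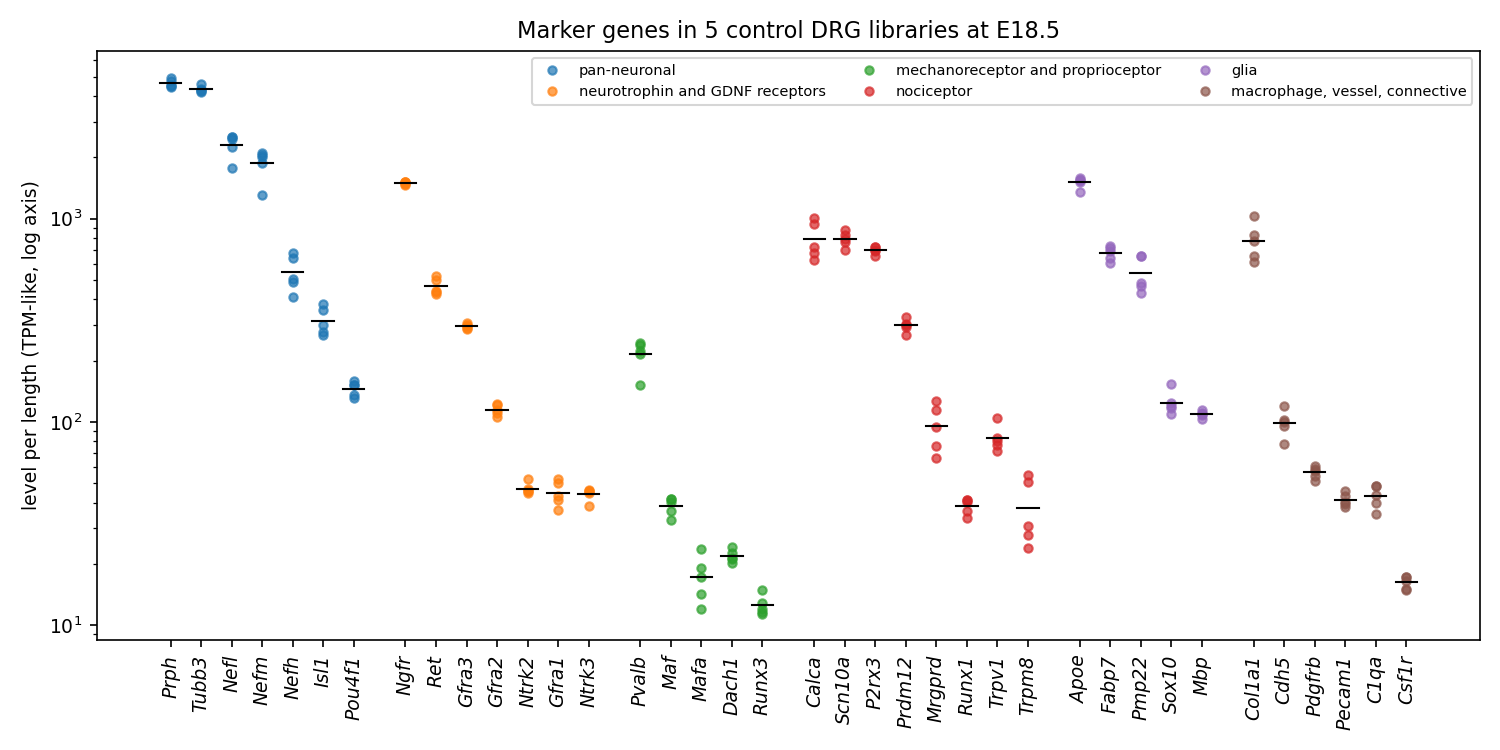
Level per length of 38 marker genes (TPM, log axis) in the 5 control libraries, 1 point per library and a bar at the mean, grouped and coloured by the cell population the gene marks. *Prph* lies near 4623 TPM, *Ret* near 465 TPM, and *Ntrk2*, *Gfra1* and *Ntrk3* overlap between 36.7 and 52.1 TPM.

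The pan-sensory list bears on the neurons that the labels name, though some of its genes, such as *Tubb3*, mark neurons in general. All 16 genes were detected, against 26.3% of all genes listed and 13483 of 21927 protein-coding genes. Their median was 858 TPM. The transcription factors that define sensory neurons were measured at 315 ± 49.6 TPM (SD, n = 5) for *Isl1*, 146 ± 11.9 TPM for *Pou4f1* (Brn3a), 180 ± 7.76 TPM for *Prrxl1* (Drg11) and 87.6 ± 14.1 TPM for *Tlx3*. *Avil* (advillin), an actin-binding protein of peripheral sensory neurons, stood at 1173 ± 83.0 TPM. Gene by gene, replicate 5 was the lowest library for 8 of the 16 and replicate 3 for 6. The summed level, which the most abundant genes weigh most, was 16324, 16682, 14395, 16798 and 16549 CPM in replicates 1 to 5, with replicate 3 the lowest.

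The neurofilaments carried much of that gap. *Nefm* was at 2604, 2835, 1798, 2763 and 2788 CPM, *Nefl* at 1812, 1964, 1418, 2026 and 2008 CPM, and *Nefh* at 480, 457, 388, 605 and 632 CPM. These genes encode the medium, light and heavy subunits of the filaments that fill large myelinated axons, and replicate 3 was the lowest in all 3. *Nefh*, the subunit that accumulates late in axon maturation, was also higher in replicates 4 and 5 than in the other libraries. The ratio of *Prph* to *Nefh* per length accordingly lay between 6.63 and 10.8, lowest in replicate 5 and highest in replicate 3. *Isl1* showed another order, with 334 and 353 CPM in replicates 1 and 2 and 250 to 279 CPM in replicates 3 to 5.

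Of the 11 genes on the A-LTMR list, 10 were detected, and *Colq* was not, at 0.665 to 2.72 CPM. The transcription factor genes of mechanoreceptors lay far below *Ret* (465 TPM) and closer to *Ntrk2* (46.9 TPM). *Maf* (c-Maf) was at 38.7 ± 3.83 TPM (SD, n = 5), *Mef2c* at 22.7 ± 1.37 TPM, *Shox2* at 18.9 ± 1.95 TPM and *Mafa* at 17.2 ± 4.51 TPM. *Mafa* was at 15.4 CPM in replicate 1, 12.4 CPM in replicate 3, 9.19 CPM in replicate 4 and 7.69 CPM in replicate 5, with replicate 2 between replicates 3 and 4. *Maf* was at 81.8, 78.2, 81.6, 71.4 and 63.8 CPM, so both genes were lowest in replicate 5 and highest in replicate 1. The calcium-binding proteins *Calb1* and *Calb2* overlapped at 12.2 ± 0.632 and 9.93 ± 1.28 TPM. *Dach1* sat between *Mef2c* and *Shox2* in this order, and its range overlapped with both.

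All 8 proprioceptor genes were detected, led by *Pvalb* (parvalbumin) at 215 ± 37.6 TPM (SD, n = 5) and *Etv1* (Er81), a transcription factor of muscle afferents, at 60.0 ± 9.61 TPM. *Pvalb* was at 53.5, 59.9, 37.3, 54.9 and 58.6 CPM, and *Etv1* at 185, 220, 141, 197 and 200 CPM. Replicate 3 was the lowest in *Pvalb*, *Etv1* and *Ntrk3*, and in the sum over the list, which was 593 CPM there and 702 to 747 CPM in the other libraries. *Runx3*, which promotes the proprioceptor fate, was the lowest of the list at 12.5 ± 1.44 TPM and lowest in replicate 3 as well, at 13.5 CPM against 13.6 to 17.5 CPM. *Whrn*, *Chodl* and *Heg1* had CVs of at most 7.26% and no such gap in replicate 3. *Ntf3*, the ligand of TrkC, belongs to no list and was picked out after its values were seen. It had 4.32 CPM in replicate 3 and 10.2 to 14.6 CPM in the other libraries.

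Of the 6 C-LTMR genes, all were detected, and *Piezo2*, the main channel of light touch, was the highest per length at 359 ± 13.5 TPM (SD, n = 5), with 1514, 1433, 1369, 1476 and 1491 CPM. Its mean of 1457 CPM was most of the list's summed mean of 1756 CPM, so the range of that sum largely follows this gene. *Piezo2* exceeded *Piezo1* by 31.7 ± 5.19-fold per length. *Th* (tyrosine hydroxylase), which marks C-LTMRs but also sympathetic neurons, was at 29.1, 33.9, 29.3, 19.9 and 45.4 CPM, highest in replicate 5, where *Dbh* and *Slc6a2* of sympathetic neurons were also highest. *Slc17a8* (VGLUT3) was barely present, at 5.27 to 7.50 CPM.

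Nociceptor genes were abundant. All 8 peptidergic genes were detected, and *Calca*, the precursor of the peptide CGRP, stood at 796 ± 168 TPM (SD, n = 5), 10.9 ± 0.607-fold above its relative *Calcb*. *Calca* was at 273, 248, 290, 403 and 372 CPM in replicates 1 to 5 and *Adcyap1* at 108, 101, 99.8, 123 and 117 CPM. *Tac1* (substance P precursor) lay between 75.0 and 77.5 CPM in replicates 1 to 3 and was at 102 CPM or more in replicates 4 and 5. *Calcb* lay between 16.7 and 18.9 CPM in the former and was at 29.2 and 27.1 CPM in the latter. In each of these 4 genes replicates 4 and 5 lay above replicates 1 to 3 without overlap. *Gal* (galanin) did not share this order, at 56.7 to 67.3 CPM.

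Among the 15 genes of non-peptidergic nociceptors and itch neurons, 10 were detected. The sodium channels *Scn10a* (Nav1.8) and *Scn11a* (Nav1.9) and the ATP-gated channel *P2rx3* were high, at 792 ± 67.5, 438 ± 72.5 and 701 ± 27.8 TPM (SD, n = 5). *Mrgprd*, a receptor of polymodal nociceptors, was at 57.1, 48.8, 70.0, 85.5 and 93.4 CPM, and *Mrgprx1* at 211, 142, 128, 268 and 251 CPM. Replicates 4 and 5 were again the highest in both. The receptor gene *Mrgpra3* was at 0.0475 to 0.562 CPM, and *Mrgprb4* was at 0 in 3 libraries and no more than 0.0475 CPM in the others. *Nppb*, which encodes a peptide of itch neurons, was at 0.266 to 0.727 CPM, and the cytokine receptor gene *Il31ra* was detected at 1.77 to 2.04 CPM. *Prdm12*, a regulator required for nociceptor formation, was at 298 ± 22.3 TPM and *Runx1*, which promotes the non-peptidergic fate, at 38.6 ± 3.44 TPM. *Runx1* stood at 119, 116, 115, 104 and 94.9 CPM, lowest in replicates 4 and 5.

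Temperature and irritant channels differed widely in level. *Trpm8*, the cold receptor, was at 34.8, 30.8, 26.7, 56.7 and 60.8 CPM, with replicates 4 and 5 above the other libraries. *Trpv1*, the heat and capsaicin receptor, was at 83.3 ± 12.2 TPM (SD, n = 5), while *Trpa1*, the irritant receptor, was not detected, at 0.266 to 1.45 CPM. Of the 14 sensory channels, 13 were detected, with *Scn10a* the highest per length. *Scn9a* (Nav1.7) stood at 241 ± 18.4 TPM and was lowest in replicate 3, at 636 CPM against 733 to 770 CPM.

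Of 14 neuropeptide genes, 10 were detected. *Gal* at 339 ± 20.7 TPM (SD, n = 5) and *Adcyap1* (PACAP) at 123 ± 11.1 TPM followed *Calca*. *Bdnf*, a neurotrophin made by some sensory neurons, was at 23.5, 28.7, 14.4, 28.1 and 27.7 CPM, lowest in replicate 3. *Penk* (proenkephalin) was highest in that library, at 21.8 CPM against 12.5 to 14.4 CPM, and *Sst* (somatostatin) stood at 2.56 CPM there and at 0.0727 to 0.432 CPM in the others. *Cartpt* was uneven at 1.38 to 12.7 CPM.

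Glial genes were also abundant per length. All 8 satellite glia genes were detected, with *Apoe* at 1510 ± 92.1 TPM (SD, n = 5) and *Fabp7*, a lipid-binding protein of immature glia, at 676 ± 52.2 TPM. The summed level of the list ranged 1.09-fold, from 1697 to 1850 CPM. *Kcnj10*, the potassium channel of mature satellite glia, was at 33.5, 35.0, 41.2, 41.6 and 42.7 CPM, while *Ednrb*, the endothelin receptor, was at 338, 293, 273, 217 and 260 CPM. *Kcnj10* was lowest and *Ednrb* highest in replicates 1 and 2.

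Of 16 Schwann cell genes, 15 were detected and *Pllp* was not. The genes of compact myelin *Pmp22* and *Mbp* stood at 537 and 109 TPM, and their spread was unequal. *Pmp22* was at 270, 238, 260, 365 and 360 CPM, and *Mbp* at 223, 205, 217, 229 and 217 CPM. The CV of *Mbp* was 4.09%, and *Pmp22* had the wider spread.

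Other genes of the myelinating state were uneven as well. *Egr2* (Krox20), the transcription factor that starts myelination, was at 1.91, 1.73, 2.42, 5.52 and 5.36 CPM, and *Prx* (periaxin) at 34.4, 34.3, 46.7, 71.5 and 65.0 CPM. *Cldn19*, a tight junction protein of Schwann cells, was at 3.81, 3.15, 5.51, 16.7 and 13.1 CPM. In *Pmp22*, *Egr2*, *Prx*, *Cldn19* and *Dhh*, replicates 4 and 5 were the highest libraries. Genes of immature or all Schwann cells did not share this, since *Erbb3* was highest in replicate 3 at 117 CPM and *Foxd3* in replicate 1 at 14.6 CPM.

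Genes of vessels, immune cells and connective tissue were also detected. Of 15 macrophage genes, 14 were detected with a median of 14.9 TPM, led by the complement genes *C1qb* and *C1qa* at 51.7 and 43.0 TPM, and their summed level ranged 1.14-fold. All 10 endothelial genes were detected, with *Cdh5* (VE-cadherin) at 98.9 ± 15.4 TPM (SD, n = 5). *Egfl7* was the steadiest of them at 39.6 to 41.6 CPM. The 10 connective tissue genes were all detected and held more counts than the vessel and immune lists, and *Col1a1*, *Col3a1* and *Col1a2*, the fibrillar collagens, stood at 779, 757 and 461 TPM. Their list sum was 5277, 5106, 6651, 4744 and 4966 CPM, with replicate 3 above the others.

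Replicate 3 was also the highest for the mural cell list, where *Acta2* (smooth muscle actin) was at 18.2, 8.12, 34.2, 6.83 and 13.5 CPM and *Myh11* at 13.4, 5.86, 20.6, 5.34 and 10.1 CPM. *Pdgfrb* and *Cspg4*, which mark pericytes, had CVs of 6.91% and 7.25%, and *Abcc9* was at 13.1 ± 0.856 TPM (SD, n = 5). *Rgs5* and *Kcnj8* of the same list were less even, at 63.8 ± 13.2 and 10.9 ± 2.65 TPM. The median CV of the mural cell list was 20.1%. Mast cell genes were scarce, with *Cpa3* at 1.51 to 5.03 CPM and *Ms4a2* at 0.190 to 0.363 CPM. Among epidermal keratins, *Krt5* was at 0.0949 to 0.444 CPM and *Krt14* at 0.130 to 0.399 CPM, while *Krt1* at 1.31 to 3.15 CPM and *Krt10* at 4.75 to 5.89 CPM were detected.

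Cycling cells were represented by all 10 proliferation genes, with *Mki67* at 95.2, 96.3, 92.4, 76.0 and 94.9 CPM and *Top2a* at 83.1, 77.9, 81.8, 69.5 and 88.9 CPM. Replicate 4 was the lowest library in each of the 10 genes. Immediate early genes, which respond within minutes to handling and stress, had a median of 5.05 CPM, against 28.5 CPM over detected genes. Their summed mean was 103 CPM over 10 genes, so some members stood well above that median. *Fos* was at 2.75 to 4.75 CPM and *Atf3*, a gene of injured neurons, at 1.69 to 2.37 CPM, and the list sum ranged 1.23-fold.

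Over the detected genes, the median CV between the 5 embryos was 7.31%, of which counting alone gives 3.93%. The biological CV (BCV), the part beyond counting error, had a median of 0.0531. It was 0.106 among genes of 1 to 5 CPM and 0.0446 among genes of 100 to 500 CPM, and it was 0 for 2431 detected genes. A BCV above 0.5 was found for 58 detected genes (0.397%). This share leaves out genes that were low in any embryo, since detection asked for a minimum in all 5 libraries. By mean level alone, 132 of 3016 genes of 1 to 5 CPM and 37 of 3740 genes of 5 to 20 CPM had a BCV above 0.5. The steadiest genes of at least 50 CPM were *Pccb*, *Ei24*, *Mfn2*, *Cgref1*, *Dcaf8*, *Tnks2*, *Sugt1*, *Gak*, *Rnf6* and *Ppp2r5e*. *Mfn2*, a mitochondrial fusion protein, lay between 262 and 267 CPM and *Pccb* between 64.5 and 65.3 CPM, below their counting error.

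**Figure D3:**
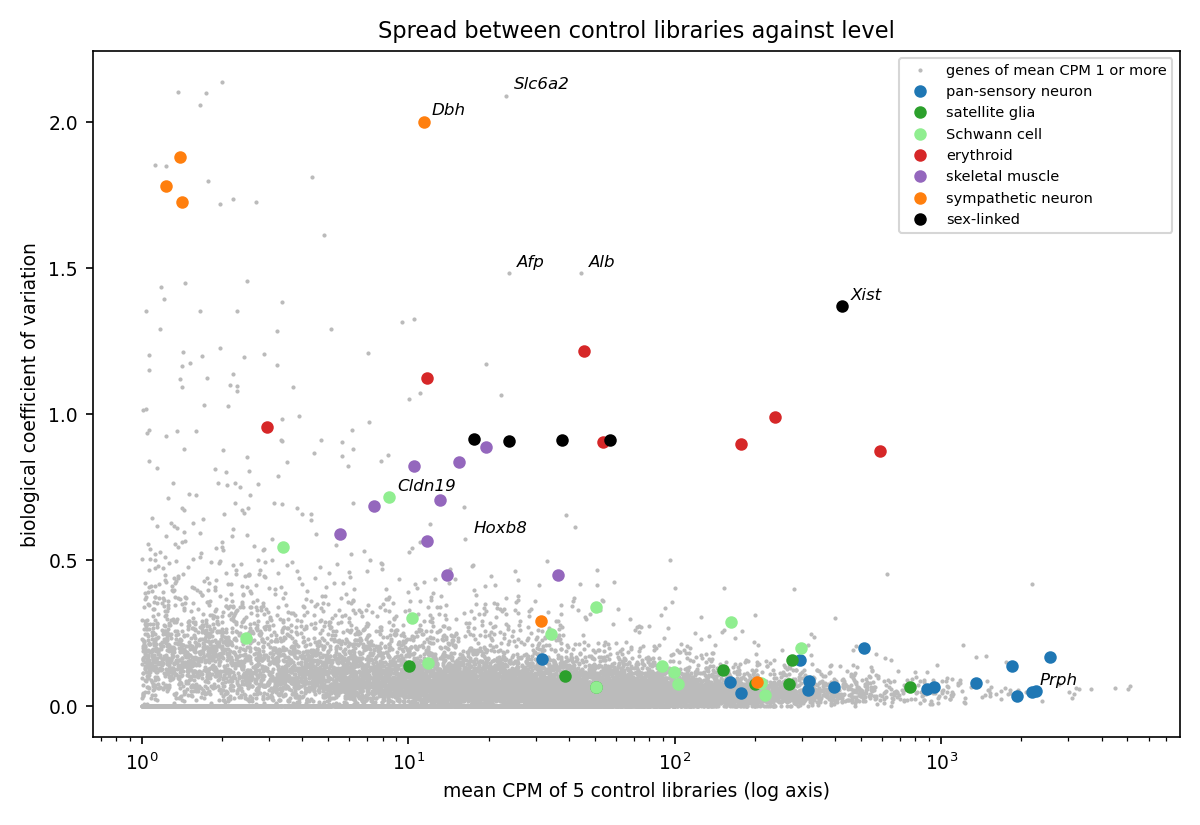
Biological coefficient of variation over 5 control libraries (y axis) against mean CPM (x axis, log axis), 1 point per gene of mean CPM 1 or more, with members of 7 lists coloured. Pan-sensory and glial genes lie below 0.5 apart from *Cldn19* at 0.716 and *Egr2* at 0.547, while most erythroid, sex-linked, muscle and sympathetic genes rise above it, up to 2.00 for *Dbh*.

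Of the 20 genes of highest BCV at a mean of 5 CPM or more, 7 were on a list. *Hba-a1*, *Hba-a2* and *Slc4a1* are on the erythroid list, *Xist*, *Uty* and *Eif2s3y* on the sex-linked list and *Dbh* on the sympathetic list. None was on a list of sensory neurons or glia. The others were *Slc6a2*, *Afp*, *Alb*, *Ahsg*, *Pla2g4e*, *Trank1*, *Grm5*, *Scand1*, *Gm10800* and the pseudogenes *Gm3375*, *Gm6472*, *Tmem181b-ps* and *Rpsa-ps10*. Replicate 1 was the highest library for 8 of the 20 and replicate 4 the lowest for 8.

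**Figure D4:**
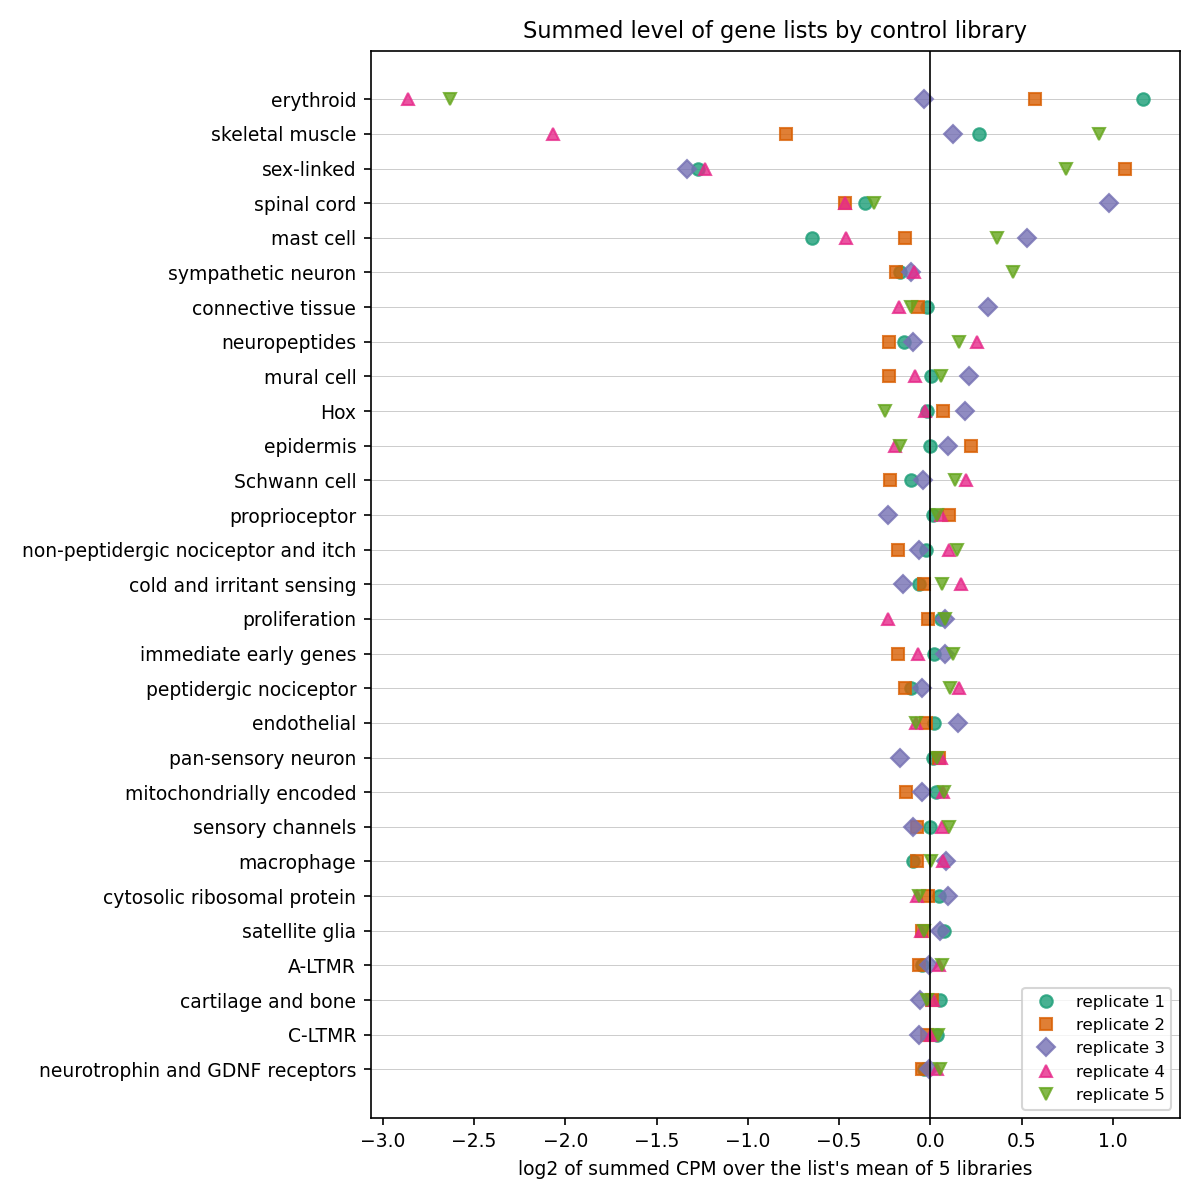
Summed CPM of each of 29 gene lists in each of the 5 control libraries, as log2 of its ratio to the list's mean (x axis), with lists ordered by their range (y axis) and symbols for the libraries. With scaling by library totals the receptor and C-LTMR lists are narrowest. The erythroid list (16.3-fold) and the skeletal muscle list (7.96-fold) are widest. *Piezo2* holds most of the C-LTMR sum.

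Blood genes were the most uneven list. The erythroid sum was 2510, 1663, 1093, 154 and 181 CPM in replicates 1 to 5, a 16.3-fold range, and 10.8-fold without replicate 1. *Hbb-bs* was at 1297, 867, 593, 87.8 and 106 CPM, and *Alas2*, the enzyme of haem synthesis in red cell precursors, at 121, 80.2, 54.1, 6.47 and 7.82 CPM. Embryonic globins *Hbb-y* and *Hba-x* were below 1 CPM in every library. The order of the libraries was thus the same in beta-globin, *Alas2* and *Slc4a1* (band 3) for replicates 1 to 3, with replicates 4 and 5 far below.

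Genes of plasma proteins made by the fetal liver were likewise highest in replicate 1 and lowest in replicates 4 and 5. *Alb* (albumin) was at 158, 41.0, 18.7, 2.87 and 0.735 CPM, *Afp* (alpha-fetoprotein) at 84.6, 25.1, 8.40, 0.763 and 0.389 CPM, and *Ahsg* (fetuin-A) at 34.1, 11.7, 5.60, 0.872 and 0.259 CPM. Replicates 1, 2 and 3 stood in the same order in the erythroid sum and in these 3 genes, whereas replicate 5 was the lowest for the liver genes and replicate 4 for the erythroid sum. The part of blood or liver material in any other difference between the libraries was not tested.

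Skeletal muscle genes differed 7.96-fold in sum, at 162, 77.9, 146, 32.0 and 255 CPM. All 9 detected genes of the list were highest in replicate 5 and lowest in replicate 4. *Myh3*, an embryonic myosin, was at 22.0, 5.32, 14.9, 1.45 and 33.6 CPM, and *Actc1*, cardiac alpha-actin, which fetal skeletal muscle also makes, at 16.5, 8.29, 13.2, 1.45 and 26.4 CPM. The master regulators of muscle cells *Myod1* and *Myog* stood at 0 in replicate 4 and at no more than 0.864 CPM elsewhere. Without replicate 4 the sum ranged 3.27-fold and without replicate 5 it ranged 5.04-fold.

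Genes of noradrenergic sympathetic neurons were high in replicate 5 alone. *Slc6a2*, the noradrenaline transporter, was at 1.66, 0.444, 3.61, 0.327 and 110 CPM in replicates 1 to 5. *Dbh*, which makes noradrenaline from dopamine, was at 0.880, 0.399, 3.37, 0.182 and 52.2 CPM. The transcription factors *Phox2a* and *Hand2*, which specify this lineage, stood at 6.05 and 5.14 CPM in replicate 5 and at no more than 0.427 CPM in the other libraries. *Gata2*, which is also made by sympathetic and mast cells, was highest there too, at 8.69 CPM against 1.51 to 3.32 CPM, and so was *Th*. Of the 8 genes on the list, *Th* and *Chga*, which sensory ganglia also express, were detected in all 5 libraries, and *Npy* was highest in replicate 3. The list sum, which leaves out *Slc6a2* and *Gata2*, was 344 CPM in replicate 5 and 221 to 237 CPM in the others, and its range of 1.56-fold was 1.07-fold without replicate 5.

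Spinal cord genes stood out in replicate 3. Of the 14 on the list only *Slc5a7*, a choline transporter, was detected in all libraries, at 15.5 to 16.7 CPM. The inhibitory neuron genes *Gad1*, *Slc6a5* and *Slc32a1* were at 7.78, 4.70 and 3.32 CPM in replicate 3, and at no more than 1.08, 0.147 and 0.0444 CPM in the other 4 libraries. *Pax2* and *Lhx1*, transcription factors of dorsal horn interneurons, were at 3.84 and 3.18 CPM there and at no more than 0.0887 CPM elsewhere. *Olig1* and *Olig2*, which mark the oligodendrocyte lineage, were at 2.71 and 0.807 CPM there and at no more than 0.216 CPM in the others, whereas *Mnx1*, of motor neurons, had at most 1 count in any library. The list sum was 51.2 CPM in replicate 3 and 18.8 to 21.0 CPM in the others. The range of the sum was 2.72-fold, and 1.12-fold without replicate 3.

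Several genes outside the lists that are known from the central nervous system were more than 2-fold above every other library in replicate 3, a criterion chosen after the values were seen. They were *Trank1* at 29.1 CPM, *Slc12a5* (the chloride exporter KCC2) at 21.3 CPM, *Grm5* (a glutamate receptor) at 19.6 CPM, *Sez6l* at 14.7 CPM and *Slc1a2* (a glutamate transporter of astrocytes) at 26.6 CPM. Their next libraries were at 5.75, 5.46, 5.10, 4.02 and 13.2 CPM. In this library *Nefm*, *Pvalb*, *Etv1*, *Ntrk3* and *Bdnf* were the lowest and *Ntrk2*, *Sox10*, *Penk*, *Sst* and the collagens the highest. The part of spinal cord material in those values was not tested.

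**Figure D5:**
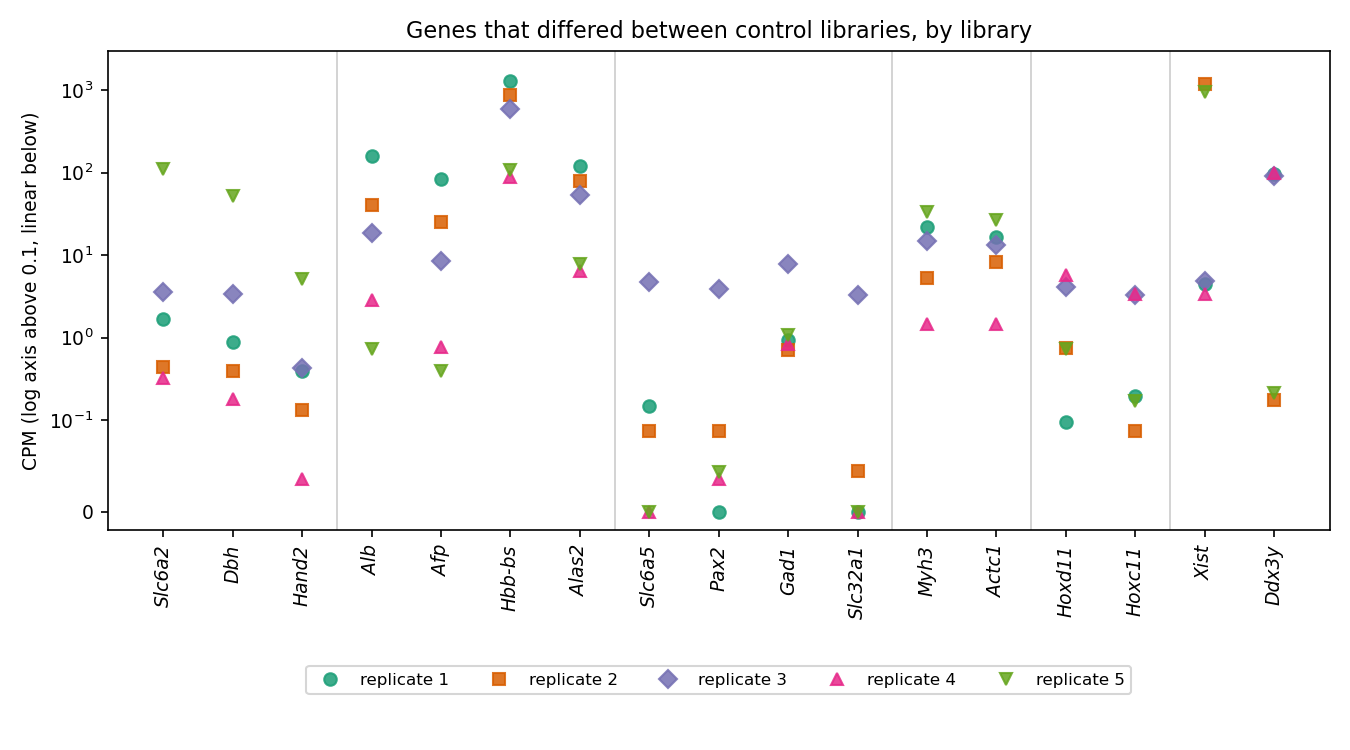
CPM of 17 genes in each control library (y axis, logarithmic above 0.1 and linear below), with symbols for the 5 libraries and vertical lines between noradrenergic, liver and blood, spinal cord, muscle, *Hox* and sex-linked genes. *Slc6a2* is at 110 CPM in replicate 5 and at most 3.61 CPM in the others, and *Alb* runs from 158 CPM in replicate 1 to 0.735 CPM in replicate 5.

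*Hox* genes, which encode the position of cells along the body axis, bear on the axial level of the ganglia, since groups with higher numbers are used further towards the tail. Of 39 *Hox* genes, 27 were detected and their sum ranged 1.36-fold, from 269 to 364 CPM. Genes of paralogue group 9 had the highest sum, at 71.2, 76.3, 75.1, 60.0 and 51.3 CPM in replicates 1 to 5. Group 7 lay between 39.8 and 49.6 CPM, group 8 between 40.5 and 66.5 CPM and group 2 between 2.14 and 4.08 CPM.

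Among the groups of the tail end, group 11 differed far more than group 10. Group 10 was at 28.1, 35.2, 36.5, 44.5 and 23.0 CPM, and group 11 at 0.537, 1.77, 9.25, 10.5 and 1.30 CPM, so replicates 3 and 4 were the highest in both. Group 11 ranged 19.5-fold, and 8.10-fold without replicate 1. *Hoxd10* was at 1.42, 2.84, 9.35, 14.3 and 2.98 CPM, *Hoxd11* at 0.0977, 0.754, 4.08, 5.70 and 0.735 CPM, and *Hoxc11* at 0.195, 0.0887, 3.27, 3.41 and 0.173 CPM. Groups 12 and 13 were counted at 0.872 and 0.436 CPM in replicate 4 and were at 0 in the others, apart from 1 count of *Hoxb13* in replicate 2. *Hoxb8* stood apart in replicate 3 at 32.4 CPM, against 9.74 to 15.4 CPM. The axial level of the ganglia taken from each embryo is not given, so it cannot be told apart from other differences between the embryos.

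Genes of the sex chromosomes fell into 2 levels. *Xist*, which silences an X chromosome in females, was at 1176 and 941 CPM in replicates 2 and 5 and at 3.34 to 4.89 CPM in the others. The Y-linked genes *Ddx3y*, *Eif2s3y*, *Kdm5d* and *Uty* were high in replicates 1, 3 and 4, with *Ddx3y* at 90.8 to 98.2 CPM, and at no more than 0.222 CPM in replicates 2 and 5. The remaining *Xist* counts in the libraries with Y-linked genes were above the floor of 3 counts.

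Some pseudogenes differed between libraries by more than 8-fold in a way that did not follow *Xist*. *Rpsa-ps10*, a processed pseudogene of a ribosomal protein, was at 0.0489, 57.2, 0.0475, 26.4 and 27.5 CPM in replicates 1 to 5, that is 1 count each in replicates 1 and 3. *Gm3375* was at 13.4, 11.3, 0.285, 0.291 and 0.346 CPM and *Gm6472* at 15.4, 17.4, 1.04, 0.727 and 0.735 CPM. *Tmem181b-ps* was at 23.5, 23.6, 7.78, 0.109 and 0.130 CPM. These entries share sequence with other genes by their nature as copies, so their counts are uncertain.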

How the data were processed

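Dorsal root ganglia of 5 control mouse embryos at E18.5 were sequenced by the authors on a NovaSeq6000 from stranded mRNA libraries made from 300 ng of total RNA. The deposited files hold raw counts per Ensembl gene, and the submitters' processing notes name bcl2fastq 2.20.0.422, STAR 2.7.8a and featureCounts 2.0.1, while the strand setting and the treatment of reads with several matches are not given in the sources used here. Libraries were grouped by title. The gene members and lists were chosen with earlier results of these data known.

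Counts were scaled to CPM by the total per library, 20465132 to 27528784. Lengths, symbols and sequences came from GENCODE vM21 (GRCm38), which matched 52133 of 55414 genes, whereas the counts rest on GRCm39, so no coordinates are given. The biological CV is the square root of the squared CV less the squared counting CV, and 0 where that is negative. Genes named were *Dach1*, the list members, the 20 highest per length, the 10 highest by CPM, and the 20 highest and 10 lowest in biological CV at mean CPM of at least 5 and 50, respectively. Genes outside this rule are said to be chosen after their values were seen, as were *Slc12a5*, *Sez6l*, *Slc1a2* and *Rpl30*. Apart from the level of *Dach1* as a check of the titles, no group was compared with another, and no test was run. Some list members are not reported here by name. The spread covers 5 embryos only. Scripts used Python 3.11.15, pandas 2.3.3 and numpy 2.4.6, and were tested on simulated data. Alternatives used edgeR 4.0.16 and DESeq2 1.42.0 in R 4.3.3 for library scaling and dispersion only.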

Additional observations from a re-analysis of the deposited data

Results flagged for a closer look

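Results are listed here where the highest or lowest of the 5 libraries was set off from its neighbour by a share of the whole range above Dixon's critical value at the 95% level. This held for 29 of 286 named genes and 5 of 30 lists, where chance gives about 1 in 20. Some of the named genes were chosen for their large spread and genes of a list share cells and libraries, so these shares cannot be read against chance. Over the 12336 genes with a mean of at least 5 CPM it held for 558 (4.52%). No explanation was tested.

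Replicate 3 was picked out most often. Its summed level was low for the pan-sensory list (14395 CPM) and the proprioceptor list (593 CPM), and high for the connective tissue list (6651 CPM) and the spinal cord list (51.2 CPM). It was low for *Pvalb* (37.3 CPM), *Nefm* (1798 CPM), *Ntrk3* (274 CPM), *Scn9a* (636 CPM) and *Map1b* (3264 CPM). It was high for *Erbb3* (117 CPM), *Col1a2* (1749 CPM), *Penk* (21.8 CPM), *Ntrk2* (238 CPM) and *Hoxb8* (32.4 CPM), and also for *Gad1* (7.78 CPM), *Gm10800* (31.1 CPM), *Trank1* (29.1 CPM) and *Grm5* (19.6 CPM).

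Replicate 5 was high for the sympathetic list (344 CPM) and for *Slc6a2* (109.9 CPM), *Dbh* (52.2 CPM), *Phox2a* (6.05 CPM), *Hand2* (5.14 CPM) and *Gata2* (8.69 CPM). It was low for *Hoxd9* (3.72 CPM) and *Junb* (5.32 CPM).

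Replicate 2 was low for *Ngfr* (1183 CPM), *Apoe* (678 CPM) and *Pou3f1* (1.29 CPM) and high for *Hoxd4* (7.90 CPM). Replicate 4 was low for *Mki67* (76.0 CPM) and *Col9a1* (2.11 CPM). Replicate 1 was high for *Alb* (158 CPM) and *Scand1* (16.4 CPM).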

How the results depend on the processing

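The number of genes detected was 34255 when 1 count in any library sufficed, against 14598. Of the 20 highest genes per length, 8 were among the 20 highest by CPM. The median biological CV was 0.108 with edgeR's trended and 0.0887 with its tagwise dispersion, which share information between genes, against 0.0531. Genes with a biological CV above 0.5 numbered 0 (trended), 31 (tagwise) and 7 (mean CPM of at least 50), against 58. Without genes of chromosomes X and Y, and among protein-coding genes alone, both chosen after seeing the data, they numbered 55 and 49. Mean levels of the 5 markers and mean sums of 29 lists moved by less than 1 SD under each scaling. Rescaling shifts libraries against each other more than their mean, so this says little about their order or range. With TMM scaling the lowest library for *Ntrk2* was replicate 2 instead of 5, and for the satellite glia list replicate 2 instead of 4. The highest for the macrophage list was replicate 4 instead of 3. The pan-sensory list kept replicate 4 as highest and replicate 3 as lowest. Fold ranges of list sums without a library, also chosen after seeing the data, stand beside those results. No paired analysis was possible because no test between groups was run. At this depth a gene under 0.147 CPM cannot be told from 0 in the shallowest library.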
